A study of Mus musculus with 12 samples.

Results

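Receptor and receptor-adaptor genes of myeloid cells were examined in mouse brain RNA: Cd14, Tlr2, Tlr4, Fcgr1, Fcgr2b, Fcgr3, Fcer1g, Clec7a, Msr1 and Lilrb4a. They were picked by gene symbol, with earlier results of these data known, and all 10 were found among the 31208 genes of the table. The mice were male C57BL/6 animals, 8 weeks old, with 4 mice in each of 3 groups. Sham mice had no ischemia. The other groups had cerebral ischemia for 6 h, produced by a filament that blocked the left middle cerebral artery at its origin (MCAO), and had received an intracerebroventricular injection of vehicle (sterile saline) or of lactate on the day before. The lactate was D-lactate by the methods, and the labels do not give its form. The sources do not say whether sham mice were injected, so injection and occlusion cannot be told apart in comparisons with sham, and the brain region is not stated. No labelled batch was given.

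Pattern-recognition receptors bind molecules of microbes or of damaged cells and start inflammatory signaling. Cd14 hands ligands such as bacterial lipopolysaccharide to Tlr4 and helps Tlr2, and both Toll-like receptors signal through Myd88. Fc receptors bind the constant part of antibodies. Fcgr1 and Fcgr3 are activating receptors that signal through the shared gamma chain Fcer1g, whereas Fcgr2b carries an inhibitory motif and restrains them. Clec7a (dectin-1) recognizes beta-glucans, Msr1 is a scavenger receptor that takes up modified lipoproteins and cell debris, and Lilrb4a is an inhibitory receptor of the immunoglobulin-like family. In the brain these genes are known mainly from microglia, border-associated macrophages and blood-derived myeloid cells.

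Fcgr2b, Fcgr3 and Fcer1g are neighbors within 276 kb of chromosome 1, and Fcgr1 lies on chromosome 3. The 250 bases before the RefSeq start site (GRCm38.p6, 5′ to 3′ on the gene's strand) are shown for Fcgr1, Fcgr3 and Fcer1g, the activating receptors and their chain. These genes stood higher together in lactate-treated mice, as did Fcgr2b, whose window is not printed. Capitals mark GAGGAA, the core of sites bound by the myeloid factor PU.1, on either strand (TTCCTC when read from the other strand).

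Fcgr1, chr3:96293970-96294219, minus strand: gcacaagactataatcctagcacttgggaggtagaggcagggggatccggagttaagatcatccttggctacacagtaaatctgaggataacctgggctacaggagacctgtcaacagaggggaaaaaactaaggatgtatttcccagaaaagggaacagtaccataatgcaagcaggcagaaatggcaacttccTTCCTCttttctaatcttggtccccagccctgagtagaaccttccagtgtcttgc
Fcgr3, chr1:171059404-171059653, minus strand: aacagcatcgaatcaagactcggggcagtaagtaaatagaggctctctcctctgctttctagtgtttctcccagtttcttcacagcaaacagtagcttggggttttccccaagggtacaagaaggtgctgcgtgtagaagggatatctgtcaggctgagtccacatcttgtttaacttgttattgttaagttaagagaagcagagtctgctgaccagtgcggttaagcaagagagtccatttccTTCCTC
Fcer1g, chr1:171234350-171234599, minus strand: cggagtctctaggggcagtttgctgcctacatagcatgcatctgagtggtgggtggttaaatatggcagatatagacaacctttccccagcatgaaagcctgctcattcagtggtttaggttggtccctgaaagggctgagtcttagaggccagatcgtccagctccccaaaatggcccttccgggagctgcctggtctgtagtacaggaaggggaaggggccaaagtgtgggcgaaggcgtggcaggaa

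Promoter windows were available for 6 of the 10 genes. GAGGAA or its reverse complement stood at -55 to -50 from the start site in Fcgr1, at -6 to -1 in Fcgr3 and at -96 to -91 in Clec7a, and was not found in the windows of Fcer1g, Fcgr2b and Tlr2. The start sites of RefSeq and of the gene models differ. The Fcgr3 window lies within the Fcgr3 gene as annotated from a longer transcript, and the windows of Fcer1g and Tlr2 reach into the annotated gene. The window of Fcgr2b, which is not printed, also lies within its annotated gene. These letters occur in 23.1% of 27025 mouse promoter windows of the same length. The longer form AGAGGAAG was present in the Fcgr1 window alone among the 6, and in 3.64% of all windows.

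Across the 3 groups, Fcgr1, Fcgr2b, Fcgr3 and Fcer1g had their highest group means in lactate-treated ischemic mice, as did Lilrb4a, Msr1 and Tlr2 at lower counts, while the mean of Cd14 was higher in vehicle-treated than in lactate-treated mice with groups that overlapped. A difference between genes in this order was not tested. Levels are given in CPM, the reads of a gene scaled to the library total. Libraries held 6815920 to 10677224 counts, at which 3 counts, taken as the limit of detection, equal 0.281 to 0.440 CPM. A principal component analysis used the genes with at least 1 CPM in at least 4 of the 12 mice. On it vehicle mouse 1 stood apart on the second component, at -69.2 against -9.51 to 19.0 in the other 11 mice. The choroid plexus markers summed to 1835 CPM in vehicle mouse 2 and to at most 18.7 CPM in every other mouse.

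**Figure D1:**
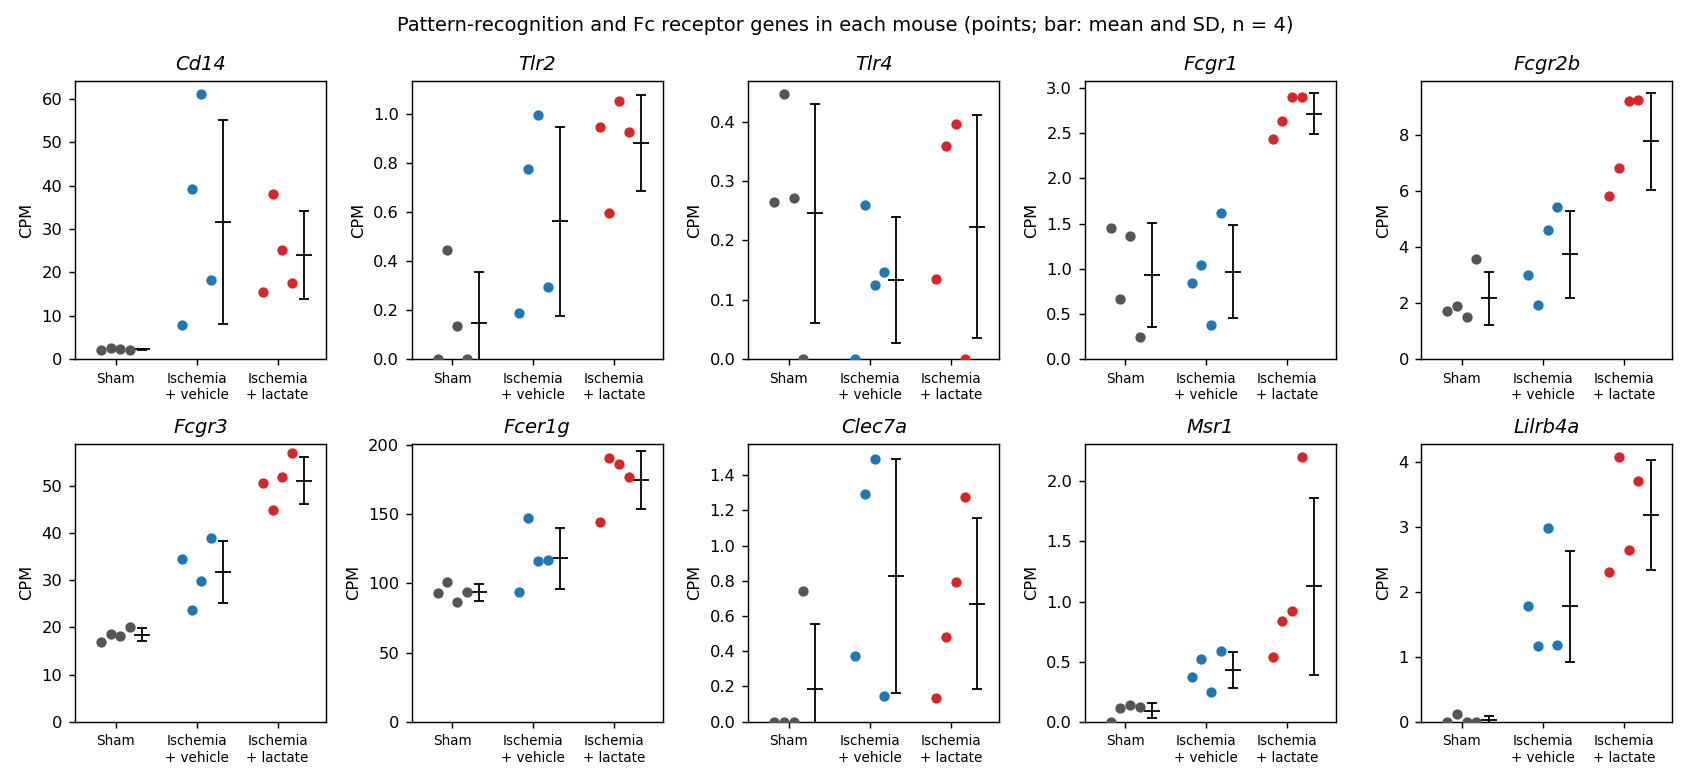
CPM of each of the 10 genes (vertical axis, a scale of its own in each panel) in the 3 groups. Each point is 1 mouse in label order, and the bar gives mean and SD (n = 4), which may run below the axis at 0. For Fcgr1, Fcgr2b and Fcgr3 the 4 lactate points lie above all vehicle points.

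A gene entered a comparison when it had at least 1 CPM in at least 4 of the 8 mice, and was called changed at a Benjamini-Hochberg adjusted P under 0.05 in edgeR's quasi-likelihood test with a fold change of at least 1.5. Cd14, Fcgr1, Fcgr2b, Fcgr3, Fcer1g and Lilrb4a entered all 3 comparisons, and Tlr2, Tlr4, Clec7a and Msr1 entered none. In vehicle-treated against sham mice 3 of these 6 genes rose (Cd14, Fcgr3 and Lilrb4a), where 219 of 17019 genes tested were called higher, or 1.29%. That count was 2 with scaling by total count or with the replicate block, and 1 without vehicle mouse 1, 3 or 4, where Lilrb4a no longer passed the filter and Fcgr3 lost its call. In lactate-treated against sham mice all 6 rose, where 1361 of 17262 genes, or 7.88%, were called higher. In lactate-treated against vehicle-treated mice 0 of the 6 were called, and 0% of the 17419 genes tested were called higher. With an unadjusted P under 0.05 and the same fold limit, 4 of the 6 were higher with lactate than with vehicle (Fcgr1, Fcgr2b, Fcgr3 and Lilrb4a), beside 3.76% of all genes tested. DESeq2, the exact test of edgeR and limma voom also called 0 of the 6 in that comparison after adjustment. The corresponding unadjusted shares of all genes were 6.5% for vehicle and 11.9% for lactate against sham, with 3 and 6 of the 6 genes. Lilrb4a entered the comparisons with sham only through the ischemic mice. These genes, and the lists of other genes below, were chosen with earlier results of these data known. The shares of all genes are therefore a background and not a test of them. The comparisons with sham share the same 4 sham mice, and the labels do not say whether mice came from separate cohorts.

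Fcgr3, the low-affinity activating receptor for IgG (chr1:171051174-171064935, minus strand, GRCm38), gave 16.9, 18.6, 18.2 and 20.1 CPM in sham mice 1 to 4. In vehicle-treated mice the values were 34.6, 23.7, 29.8 and 38.9 CPM. In lactate-treated mice they were 50.7, 44.8, 52.0 and 56.9 CPM. The 3 groups did not overlap, with every vehicle mouse above every sham mouse and every lactate mouse above every vehicle mouse. Against sham, Fcgr3 rose by a log2 fold change of 0.82 (SE 0.18, adjusted P = 0.0432 by edgeR) with vehicle and of 1.5 (SE 0.13, adjusted P = 8.93e-06) with lactate. The call with vehicle was not held when any mouse but vehicle mouse 2 was left out (adjusted P up to 0.158), nor with all mice under scaling by total count (adjusted P = 0.0539) or the replicate block (adjusted P = 0.0757), while the log2 fold change stayed at 0.71 to 0.94 over all alternatives. Lactate against vehicle gave 0.67 (SE 0.17, unadjusted P = 0.00238, adjusted P = 0.460).

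Fcer1g, the gamma chain (chr1:171229572-171234365, minus strand), was the member with the most reads, 635 to 1590 per mouse. Its sham values were 93.1, 101, 86.2 and 93.6 CPM, and its vehicle values were 93.5, 147, 116 and 116 CPM. Lactate-treated mice gave 144, 190, 186 and 176 CPM. All lactate mice lay above all sham mice, and only lactate mouse 1 lay within the vehicle range, below vehicle mouse 2. Fcer1g rose with lactate against sham by 0.93 on the log2 scale (SE 0.11, adjusted P = 0.00021 by edgeR), while vehicle against sham gave 0.37 (SE 0.15, adjusted P = 0.300). Lactate against vehicle gave 0.54 (SE 0.15, unadjusted P = 0.0039, adjusted P = 0.481), at 1.46-fold just under the fold limit. Its coding transcripts are 674 to 683 nt long, not far above the 500 bp that reads needed to be kept.

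Fcgr2b, the inhibitory receptor (chr1:170958617-170976547, minus strand), had 1.71, 1.89, 1.49 and 3.58 CPM in sham mice. Vehicle-treated mice had 3.00, 1.94, 4.61 and 5.43 CPM. Lactate-treated mice had 5.81, 6.83, 9.23 and 9.28 CPM, so that the lowest lactate mouse stood above the highest vehicle mouse. Vehicle and sham mice overlapped, and their log2 difference of 0.80 (SE 0.38) missed the limit at an adjusted P of 0.384 by edgeR. Lactate against sham gave a rise of 1.86 (SE 0.29, adjusted P = 0.00169). Lactate against vehicle gave 1.05 (SE 0.31, unadjusted P = 0.0059, adjusted P = 0.481).

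Fcgr1, the high-affinity receptor for IgG (chr3:96282909-96293969, minus strand), rested on few reads, 2 to 11 in each sham mouse, 3 to 11 in each vehicle mouse and 18 to 25 in each lactate mouse. These counts are 1.45, 0.669, 1.36 and 0.247 CPM in sham mice and 0.843, 1.04, 0.373 and 1.61 CPM in vehicle-treated mice. Lactate-treated mice gave 2.43, 2.63, 2.90 and 2.90 CPM. Sham and vehicle mice could not be separated (log2 fold change 0.09, SE 0.54, adjusted P = 0.967 by edgeR), and all 4 lactate mice stood above both groups. The rise with lactate was 1.59 (SE 0.40, adjusted P = 0.0195) against sham, and the difference from vehicle was 1.48 (SE 0.39, unadjusted P = 0.00241, adjusted P = 0.460).

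Fcgr1, Fcgr2b and Fcgr3 are thus the 3 of 6 tested genes in which no lactate mouse overlapped a vehicle mouse, a separation found for 2.99% of all 17419 genes tested. Complete separation upward was found for 3 of the 6 in vehicle against sham mice (4.14% of all genes tested) and for 6 of the 6 in lactate against sham mice (10.4%). Lilrb4a is counted in both, but its separation from sham was fixed by the filter. With sham values of at most 0.111 CPM, it could pass only if all 4 ischemic mice had at least 1 CPM. Without vehicle mouse 1 the log2 differences between lactate and vehicle were 1.43 for Fcgr1, 0.96 for Fcgr2b, 0.72 for Fcgr3 and 0.45 for Fcer1g. Without vehicle mouse 2 they were 1.52, 0.84, 0.55 and 0.66, which takes Fcgr3 under the fold limit of 1.5 and Fcer1g over it. The number of Fcgr3 reads for each Fcgr2b read, activating over inhibitory receptor, was 5.62 to 12.2 in sham, 6.46 to 12.2 in vehicle-treated and 5.63 to 8.72 in lactate-treated mice, with ranges that overlap. The longest open reading frames of Fcgr2b and Fcgr3 are identical at 87.5% of 785 aligned positions, with a longest identical stretch of 129 nt, so reads of partial length could be shared between them. A gene on the other strand, Gm38204, overlaps Fcgr2b, and Mir6546 lies within Fcgr3.

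**Figure D2:**
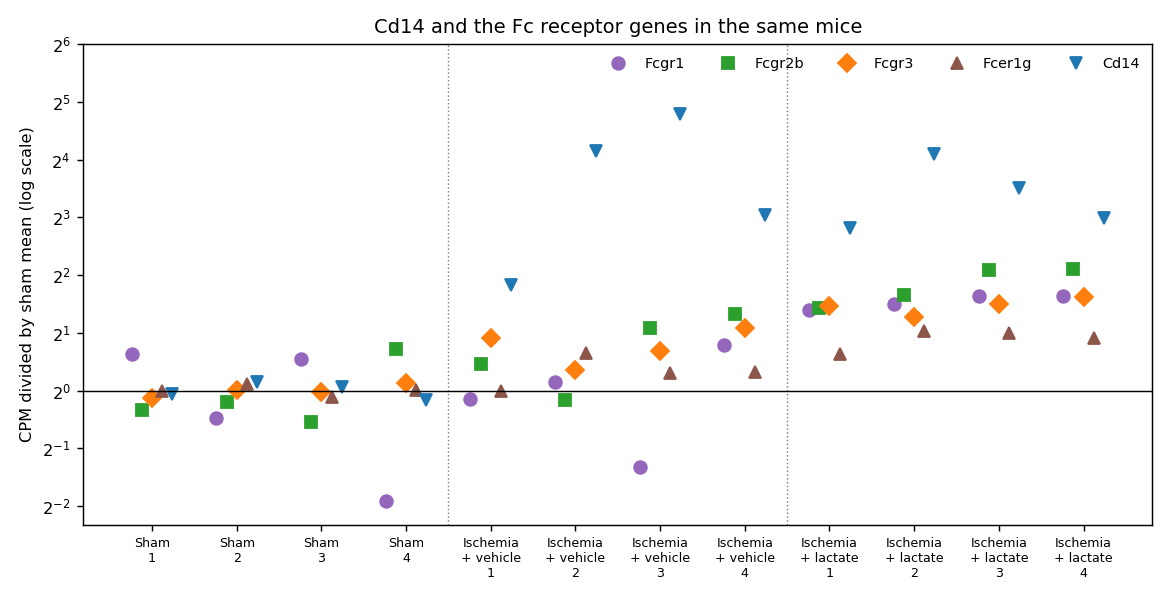
CPM of Cd14, Fcgr1, Fcgr2b, Fcgr3 and Fcer1g in each of the 12 mice divided by the gene's own sham mean (vertical log axis, line at the sham mean). Cd14 is the highest point in all 8 ischemic mice and is uneven within both groups, while the Fc receptor genes stand together above the sham mean in the 4 lactate-treated mice.

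Cd14 (chr18:36725067-36726798, minus strand), the co-receptor for lipopolysaccharide, rose in both ischemic groups. Sham mice had 2.11, 2.45, 2.31 and 1.97 CPM. Vehicle-treated mice had 7.87, 39.1, 61.1 and 18.2 CPM, and lactate-treated mice 15.6, 38.0, 25.1 and 17.5 CPM. Every ischemic mouse was above every sham mouse, and the lactate range fell inside the vehicle range. Cd14 rose by a log2 fold change of 3.85 (SE 0.54, adjusted P = 0.00243 by edgeR) with vehicle and of 3.46 (SE 0.30, adjusted P = 8.66e-06) with lactate, about 14.4-fold and 11.0-fold. Lactate against vehicle gave -0.40 (SE 0.49, adjusted P = 0.840), and 0.13 when vehicle mouse 3 was left out, so no direction can be given.

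Some neutrophil markers were also higher in ischemic than in sham mice. The summed level of the list was 3.46 to 8.04 CPM in sham mice, 18.4, 61.1, 81.4 and 13.9 CPM in vehicle-treated mice 1 to 4, and 29.1, 28.3, 48.8 and 23.9 CPM in lactate-treated mice. Vehicle mice 2 and 3 were the highest of their group in both Cd14 and this sum, whereas among lactate-treated mice Cd14 was highest in mouse 2 and the sum in mouse 3. Of the 11 neutrophil markers, 5 could be tested against sham with vehicle and 3 of them rose (S100a8, S100a9 and Il1r2), beside 1.29% of all genes, and 6 could be tested with lactate and 4 rose (these and Retnlg), beside 7.88%. Il1r2, and Retnlg with lactate, entered these tests only through the ischemic mice, as their sham values were at most 0.132 and 0.527 CPM. S100a8 and S100a9 also needed ischemic mice to pass the filter, as their lowest sham values were 0.446 and 0 CPM. Passing the filter and rising were thus linked for all the markers that rose. The neutrophil receptor genes Csf3r (-0.97 with vehicle and -0.06 with lactate) and Cxcr2 (0.38 and -0.28) were tested and not called. The defining markers Camp, Ly6g and Mmp8 were at 0 in all sham mice. In ischemic mice Camp was at most 0.147 CPM and Ly6g at most 0.249 CPM. Mmp8 had 0.0937 to 1.62 CPM with vehicle and 0 to 0.527 CPM with lactate. The part of neutrophils in the Cd14 values was not tested. In whole-tissue RNA, more cells of a type and more RNA per cell cannot be told apart.

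The Toll-like receptors that work with Cd14 gave few reads. Tlr2 (chr3:83836272-83841767, minus strand) had 0, 4, 1 and 0 counts in sham mice, 2, 6, 8 and 2 in vehicle-treated mice, and 7, 5, 8 and 8 in lactate-treated mice. The lactate mice did not overlap with the sham mice (0.882 ± 0.197 against 0.145 ± 0.210 CPM, SD, n = 4). Without the filter on low counts, edgeR gave Tlr2 a log2 fold change of 2.38 (SE 0.75, adjusted P = 0.0523) for lactate against sham, and with a limit of 0.5 CPM one of 2.40 (adjusted P = 0.0412), on opposite sides of the threshold. Tlr2 met the limit of 0.5 CPM only through the lactate-treated mice. Of the 8 fits with no filter that left out a mouse, the one without sham mouse 2, which held 4 of the 5 sham reads, gave a log2 fold change of 3.91 (adjusted P = 0.016), and the other 7 gave 0.0512 to 0.124. Tlr4 (chr4:66827584-66930284, plus strand) had 0 to 4 counts in sham, 0 to 2 in vehicle-treated and 0 to 3 in lactate-treated mice, at or below 3 counts in 11 of the 12 mice, and a difference was not detectable at this depth. The Tlr4 partner Ly96 (MD-2) had 1.13 ± 0.329, 1.18 ± 0.594 and 0.978 ± 0.315 CPM in sham, vehicle-treated and lactate-treated mice (SD, n = 4).

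The wider Toll-like receptor family was sparse as well. Of 15 other receptors and accessory proteins, 5 could be tested in vehicle against sham mice and 1 rose, Tlr7, a sensor of single-stranded RNA, with a log2 fold change of 2.85 (adjusted P = 0.0328 by edgeR). Tlr7 passed the filter only through the vehicle-treated mice, since its sham values were at most 0.543 CPM and its vehicle values at least 1.30 CPM. It did not pass the filter in lactate against sham mice, where the lactate values ran from 0.264 to 4.33 CPM with a mean of 1.79, near the vehicle mean of 2.04, and lactate against vehicle gave -0.24 (adjusted P = 0.933). With lactate against sham 3 could be tested and 1 rose, Ly86, the partner of Cd180, by 1.27 (adjusted P = 0.0024). Ly86 averaged 10.5 ± 1.52, 11.8 ± 1.84 and 24.8 ± 6.85 CPM in sham, vehicle-treated and lactate-treated mice, and lactate against vehicle gave 1.04 (unadjusted P = 0.000786, adjusted P = 0.371). Of 12 genes of the signal chain, 0 of 7 tested were called with vehicle and 1 of 8 with lactate, Myd88, the adaptor of most Toll-like receptors, which rose by 1.28 (adjusted P = 0.014). The shares of all genes called higher were 1.29% with vehicle and 7.88% with lactate, so 1 of 8 is close to the latter. The median log2 fold changes over the tested genes of these lists were 0.08 and 0.12 with vehicle and 0.17 and -0.11 with lactate, where those of all genes tested were 0.003 and -0.03.

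**Figure D3:**
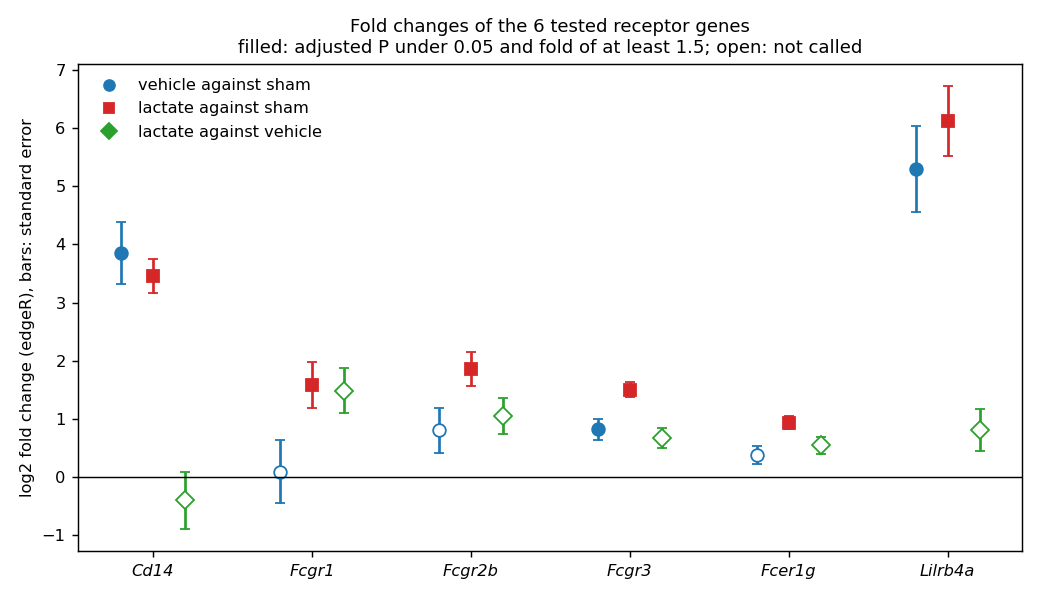
Log2 fold change from edgeR with its standard error (vertical axis) for the 6 genes tested, in vehicle against sham, lactate against sham and lactate against vehicle mice. Filled symbols passed the adjusted P and fold limits, and all 6 lactate against vehicle symbols are open. The fitted values of Lilrb4a against sham depend on the prior count, since 3 of the 4 sham mice had no read.

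Lilrb4a (chr10:51490956-51496611, plus strand), an inhibitory receptor, was nearly unread in sham mice, with 0, 1, 0 and 0 counts. Vehicle-treated mice had 19, 9, 24 and 8 counts (1.78, 1.17, 2.99 and 1.17 CPM). Lactate-treated mice had 17, 34, 20 and 32 counts (2.30, 4.07, 2.64 and 3.71 CPM). All ischemic mice were above the sham mice, and the ischemic groups overlapped through vehicle mouse 3. Set against a floor of 3 counts in the shallowest sham library, the group means were at least 4.36-fold higher with vehicle (adjusted P = 0.00244 by edgeR) and at least 7.80-fold higher with lactate (adjusted P = 3.86e-05). Lactate against vehicle gave a log2 fold change of 0.81 (SE 0.36, unadjusted P = 0.0449, adjusted P = 0.554).

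The reads of Lilrb4a are uncertain between near-identical genes. Its longest open reading frame is identical to that of Lilr4b at 96.0% of 910 positions, with a longest shared stretch of 126 nt, and the read-through gene Gm49339 overlaps it on the same strand. Lilr4b had 0 counts in all sham mice, 10, 30, 17 and 4 in vehicle-treated mice and 6, 41, 23 and 20 in lactate-treated mice. Gm49339 had 0 to 1 counts in sham, 6 to 27 in vehicle-treated and 10 to 31 in lactate-treated mice. All 3 genes of the locus thus had more reads in each ischemic mouse than in any sham mouse.

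Clec7a and Msr1 stayed under the filter. Clec7a (chr6:129461591-129472779, minus strand) had 0, 0, 0 and 6 counts in sham mice, 4, 10, 12 and 1 in vehicle-treated mice and 1, 4, 6 and 11 in lactate-treated mice. Each ischemic group overlapped sham mouse 4, and without a filter edgeR gave adjusted P values of 0.381 and 0.259 against sham. Leaving out sham mouse 4 gave an adjusted P of 0.0306 for lactate and of 0.103 for vehicle against sham, so only the lactate comparison crossed the threshold without that mouse. Msr1 (chr8:39581685-39642673, minus strand) had 0, 1, 1 and 1 counts in sham mice, 4, 4, 2 and 4 in vehicle-treated mice and 4, 7, 7 and 19 in lactate-treated mice. Lactate mouse 4 stood highest at 2.20 CPM, and vehicle mouse 3 and all sham mice were at or below 3 counts, the limit of detection. Against that floor in the shallowest sham library, the mean was at least 2.76-fold higher with lactate. The vehicle mean was 1.06-fold the floor with vehicle mouse 3 itself under it, so no least rise can be given with vehicle. Without a filter edgeR called Msr1 against sham at an adjusted P of 0.00715 with lactate and not at 0.298 with vehicle.

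Relatives of these receptors were counted in the same way, to be read beside the 1.29% of all genes called higher with vehicle and 7.88% with lactate. Of 18 Fc receptor relatives and signal proteins, 0 of 11 tested rose with vehicle and 2 of 11 rose with lactate, Tyrobp (DAP12, an adaptor that works like Fcer1g) by 0.63 (adjusted P = 0.00996 by edgeR) and Fcrls, an Fc receptor-like gene of microglia, by 0.85 (adjusted P = 0.00227). Tyrobp averaged 116 ± 21.3, 137 ± 24.5 and 176 ± 16.7 CPM in sham, vehicle-treated and lactate-treated mice. Fcgr4, the remaining activating IgG receptor of mice, had 0 counts in all sham mice, 1, 0, 3 and 0 in vehicle-treated mice and 3, 5, 4 and 7 in lactate-treated mice, too few to be tested. Fcgrt, which recycles IgG and is not a phagocytic receptor, had 12.1 ± 1.78, 7.81 ± 2.26 and 7.96 ± 1.58 CPM and was not called. Of 22 lectin, scavenger and immunoglobulin-like receptors, 0 of 8 tested rose with vehicle and 2 of 9 with lactate, Cd68 (0.99, adjusted P = 0.00542) and Scarb1 (0.66, adjusted P = 0.0439). In lactate against vehicle mice 0 genes of the 4 lists were called, and their medians were 0.11 (Toll-like receptors), -0.13 (signal chain), 0.26 (Fc relatives) and 0.16 (lectin and scavenger receptors), where that of all genes tested was -0.03. The median log2 fold changes of the Fc and the lectin lists were -0.15 and 0.30 with vehicle and 0.15 and 0.35 with lactate.

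Markers of the cells that could carry these receptors were summed in each mouse. The 12 homeostatic microglia markers gave 308 to 338 CPM in sham, 226 to 317 CPM in vehicle-treated and 306 to 371 CPM in lactate-treated mice, with no marker at 0. Of 11 markers tested in vehicle against sham mice, 3 fell (P2ry12, P2ry13 and Cx3cr1), beside 0.182% of all genes called lower. Of 12 tested in lactate against sham mice, 3 fell (P2ry12, P2ry13 and Gpr34), beside 2.52% of all genes, and Fcrls rose. In lactate against vehicle mice, the comparison in which the Fc receptor genes stood higher at unadjusted P values, 0 of 11 microglia markers were called after adjustment. Their median log2 fold change there was 0.34, and P2ry13 (1.08, unadjusted P = 0.00556, adjusted P = 0.481), Cx3cr1 (0.63, unadjusted P = 0.0177, adjusted P = 0.514) and Fcrls (0.58, unadjusted P = 0.00259, adjusted P = 0.460) had the lowest P values in edgeR. Border-associated macrophage markers summed to 7.65 to 11.1, 10.2 to 15.2 and 12.4 to 17.8 CPM, and monocyte markers to 3.03 to 5.16, 7.04 to 13.5 and 5.14 to 11.2 CPM, in sham, vehicle-treated and lactate-treated mice. Of 5 macrophage and 2 monocyte markers tested against sham, 0 were called with either treatment, and Chil3 and F10 were at 0 in sham mice. B cell markers, of interest because B cells express Fcgr2b, summed to at most 1.05 CPM in any mouse, and Ms4a1 was at 0 in all. Among other cells, the 5 red blood cell markers summed to 560 to 633 CPM in sham, 333 to 500 CPM in vehicle-treated and 375 to 499 CPM in lactate-treated mice. Beside the same 2.52%, Hbb-bt fell with lactate against sham (log2 fold change -0.61, adjusted P = 0.0109 by edgeR), as did the oligodendrocyte gene Mog (-0.60, adjusted P = 0.0125). The choroid plexus gene Ttr rose with lactate (3.25, adjusted P = 9.50e-05), to 7.78 to 16.2 CPM from 0.815 to 2.90 CPM. With vehicle it was not called (8.32, adjusted P = 0.0620 by edgeR), at 2.64 to 1817 CPM. The choroid plexus markers summed to 14.1, 1835, 13.3 and 3.23 CPM in vehicle mice 1 to 4 and to 9.46 to 18.7 CPM in lactate-treated mice. The part of these cell types in the receptor values was not tested.

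**Figure D4:**
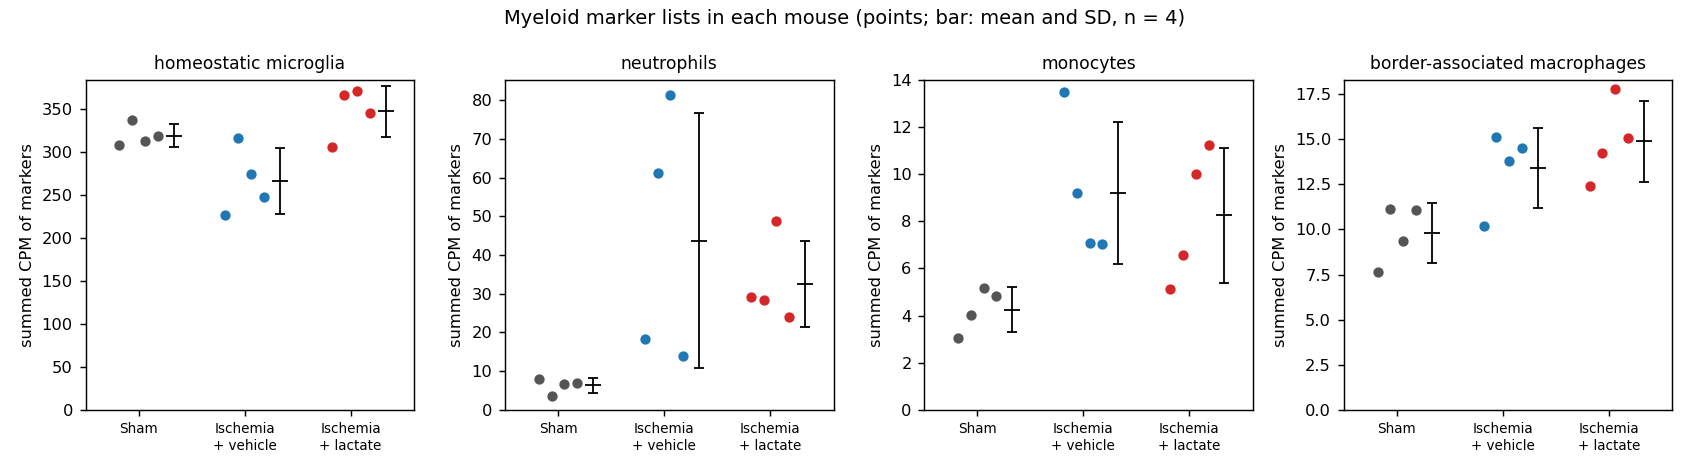
Summed CPM of the marker genes of homeostatic microglia, neutrophils, monocytes and border-associated macrophages (vertical axis) in each mouse of the 3 groups. Points are mice in label order and bars give mean and SD (n = 4), and the neutrophil sum is highest in vehicle mice 2 and 3, at 61.1 and 81.4 CPM.

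Over the 12 mice, the genes most similar to the mean profile of the 6 tested receptor genes among 13522 genes were Vim (Pearson r = 0.989), Pdlim4 (r = 0.980), Saa3 (r = 0.975), Hmox1 (r = 0.971) and Cd63 (r = 0.967). These values describe mice of 3 groups together, so the group differences enter them. Vim, an intermediate filament of glia and other cells, averaged 9.31, 16.7 and 29.6 CPM in sham, vehicle-treated and lactate-treated mice. Hmox1, which breaks down heme, averaged 1.37, 7.31 and 14.0 CPM, and Cd63, a tetraspanin of endosomes, 193, 283 and 350 CPM.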

How the data were processed

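Brain RNA of 12 mice was sequenced as full-length, PCR-amplified cDNA on a nanopore instrument. According to the methods, the authors kept reads of at least 500 bp and quality 7, removed ribosomal RNA, mapped full-length reads with minimap2, used pinfish for polishing and gffcompare for matching to annotated transcripts. The submitters' processing notes name GRCm38 and DESeq 1.10.1. How reads were assigned to genes, and whether strand was used, is not given in the sources used here. The deposited count values are unnormalized reads per gene, and the deposited CPM values are these reads scaled by the authors to each library total. The authors' own P values and fold changes, also in the table, were not used. Lines without a gene (4) were left out, and 0 per-sample columns were unused.

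The tests were run with edgeR 4.0.16 under R 4.3.3 (quasi-likelihood, TMM, only the 2 groups compared in each fit), with adjustment over all genes tested. Alternatives used DESeq2 1.42.0, limma 3.58.1, other scaling, filters, samples and call rules. On simulated data for lactate against vehicle, with 17559 genes, 7 of 50 genes changed 1.5-fold, 37 of 50 changed 2-fold and 50 of 50 changed 4-fold were recovered. The simulation gave all genes the same set spread between mice. Some members varied more, such as Cd14 (31.6 ± 23.6 CPM) and Fcgr2b (3.74 ± 1.57 CPM, SD) with vehicle, and others less. These shares are therefore not the power for a given member. Positions are those of GENCODE release M21 (GRCm38), and promoters are from RefSeq. Open reading frames were aligned with Biopython 1.88. The members and lists were chosen with earlier results of these data known. The genes named are all members, the pathway-list genes and cell type markers called in any comparison, the 5 genes most like the members' profile, and genes whose values bear on a member, added after their values were seen. Counts of 3 or fewer were taken as not told apart from 0, which covers counting error only, since reads carry no molecular identifiers.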

Additional observations from a re-analysis of the deposited data

Results flagged for a closer look

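Of 30 sets of 4 values, 10 genes in 3 groups, 2 held a mouse far from the other 3. Chance gives about 1 in 20 for continuous values, a rate that does not hold for these 2 sets. Both had 3 values of 0, where any count in the remaining mouse is flagged. Clec7a was at 0.74 CPM in sham mouse 4, from 6 counts, and at 0 in the other sham mice. Lilrb4a was at 0.111 CPM in sham mouse 2, from 1 count, and at 0 in the other sham mice, a difference of a single read.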

How the results depend on the processing

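Of 312 alternative values for the log2 fold changes of the 6 tested genes, 300 kept their direction and their side of the thresholds, 9 kept the direction and lost the call, and 3 changed direction. All 9 lost calls were those of Fcgr3 in vehicle against sham mice, at adjusted P values of 0.0539 with scaling by total count, 0.0757 with the replicate block, and 0.0513 to 0.158 in 7 of 8 fits that left out a mouse (edgeR). The changes of direction were Fcgr1 in vehicle against sham mice, at -0.03 without sham mouse 2 and -0.22 without sham mouse 4 (-0.22 to 0.35 over the 4 of 8 fits without a mouse in which it passed the filter), and Cd14 in lactate against vehicle mice, at 0.13 without vehicle mouse 3 (-0.73 to 0.13). None of these 2 differences was called in any setting.

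The number of genes that rose with vehicle was 3, and 1 to 2 when a mouse was left out, with 1 without vehicle mouse 1, 3 or 4. Without a vehicle mouse Lilrb4a had at least 1 CPM in only 3 mice and was not tested. The number that rose with lactate against sham was 6, and 5 to 6 when a mouse was left out, for the same reason, and it was 7 without a filter and 8 with a filter of 0.5 CPM, which Msr1 and Tlr2 met only through the lactate-treated mice. In lactate against vehicle mice the number was 0, and 4 with an unadjusted P. For genes under the filter, Tlr4 in lactate against sham mice changed from -0.18 to 0.30 without sham mouse 2 and to 0.23 without lactate mouse 4 (-0.58 to 0.30 in all), and Clec7a in lactate against vehicle mice from -0.31 to 0.11 without vehicle mouse 3 and to 0.0072 without lactate mouse 1 (-0.83 to 0.11 in all). The cause of these changes was not tested.

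Mice of different groups share a number in the labels but are different animals. The correlation of same-numbered deviations was -0.148 to 0.158, so the numbers do not pair the mice. With the replicate block 2, 6 and 0 genes rose in the 3 comparisons. Tlr2, Tlr4, Clec7a, Msr1 and Fcgr1 are limited by depth, with 0 to 25 counts in each mouse.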
